A study of Mus musculus with 8 samples.

Results

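Tsx, Rhox5, Hopx, Wfdc18, Lpar3 and Tbx22 are 6 of the 18194 genes that the array names by a single symbol, and 7 probe sets report them. They were chosen on their measured values: each was far lower in testes with Sf1-Cre than in testes with Dhh-Cre, or was low in the Sf1-Cre testes alone. Their levels and differences are therefore a description, and no p-value is given for them. They had been grouped as Sertoli transcripts lost only with Sf1-Cre. With the deposited scaling, Tsx, Rhox5, Lpar3 and Tbx22 were low in the Sf1-Cre arrays alone, which is what they were chosen for. With arrays centred on housekeeping genes, Tsx and Rhox5 were below control in Dhh-Cre too (log2 differences -0.82 and -1.24). Hopx was already near the detection limit in controls. With the deposited scaling, Wfdc18 was no lower in Sf1-Cre testes than in controls, although its log2 difference was -0.83 with arrays centred on housekeeping genes. Its controls were close to the detection limit too, so the name described neither gene well. Whole-testis arrays do not show which cells made a transcript.

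The study asked what deletion of Dmrt1 from Sertoli cells does to the testis at postnatal day 28. Male mice of 3 genotypes on a mixed C57BL6/6J and 129 background were measured, each with total RNA of whole testis on 1 array per sample. Controls (n = 2) carried Dmrt1 flox/flox alleles and no Cre. The Dhh-Cre group (n = 2) carried the same floxed alleles with Cre under the promoter of Dhh, and the Sf1-Cre group (n = 4) carried them with Cre under the promoter of Sf1, whose gene is Nr5a1. All 3 groups thus share the floxed alleles, and no testis with a Cre and an intact Dmrt1 was analysed here. Both drivers are described by the submitters as specific to Sertoli cells, although Nr5a1 is known to be active in Leydig cells too. Dmrt1 is also made in germ cells, which neither driver is described as reaching, so its transcript in whole testis has 2 sources. The labels call the samples of a group biological replicates.

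Sertoli cells nurse the germ cells inside the seminiferous tubules, and much of what they transcribe depends on androgen and follicle-stimulating hormone. Dmrt1 encodes a transcription factor with a DM domain that keeps Sertoli cells male after birth. In its absence they take on features of granulosa cells, the supporting cells of the ovary. Rhox5, also known as Pem, is a homeobox gene of the X-linked reproductive homeobox cluster and a classic androgen-responsive transcript of Sertoli cells that is made in the epididymis as well. Tsx is a testis transcript from the neighbourhood of the X-inactivation centre. Tbx22 is a T-box transcription factor known for its role in the palate, Hopx a small homeodomain protein that acts through partner proteins instead of binding DNA, Lpar3 a receptor for the lipid signal lysophosphatidic acid, and Wfdc18 a small secreted protein with a whey acidic protein domain.

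The promoters of 4 members are shown, Rhox5, Tbx22 and Wfdc18 because they hold motif matches and Tsx because it holds none while its levels run closest to those of Rhox5. They are RefSeq sequences of GRCm38.p6, from 250 bases before to 50 bases after the transcription start, on the plus strand, read 5′ to 3′, with matched motifs in capitals. The Tsx window is chrX:103414217-103414516, the Rhox5 window chrX:37754358-37754657, the Tbx22 window (the first of 3 starts) chrX:107667714-107668013 and the Wfdc18 window chr11:83708754-83709053.
Tsx: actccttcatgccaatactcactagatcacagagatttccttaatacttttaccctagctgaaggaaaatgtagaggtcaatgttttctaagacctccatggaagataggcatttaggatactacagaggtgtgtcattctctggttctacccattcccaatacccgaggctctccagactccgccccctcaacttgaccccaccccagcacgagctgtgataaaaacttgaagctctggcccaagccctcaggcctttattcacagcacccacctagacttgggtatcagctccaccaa
Rhox5: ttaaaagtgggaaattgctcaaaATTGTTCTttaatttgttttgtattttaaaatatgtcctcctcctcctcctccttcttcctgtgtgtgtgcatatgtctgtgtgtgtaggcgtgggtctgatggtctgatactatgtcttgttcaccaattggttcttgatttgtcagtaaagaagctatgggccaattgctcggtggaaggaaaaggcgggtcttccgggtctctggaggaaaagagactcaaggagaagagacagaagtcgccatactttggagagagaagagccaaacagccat
Tbx22: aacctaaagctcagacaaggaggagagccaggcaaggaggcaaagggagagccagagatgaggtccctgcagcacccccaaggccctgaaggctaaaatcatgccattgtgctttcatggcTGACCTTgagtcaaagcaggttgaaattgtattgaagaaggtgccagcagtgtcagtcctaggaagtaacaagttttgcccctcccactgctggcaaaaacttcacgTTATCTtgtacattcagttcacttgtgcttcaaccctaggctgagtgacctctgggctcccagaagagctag
Wfdc18: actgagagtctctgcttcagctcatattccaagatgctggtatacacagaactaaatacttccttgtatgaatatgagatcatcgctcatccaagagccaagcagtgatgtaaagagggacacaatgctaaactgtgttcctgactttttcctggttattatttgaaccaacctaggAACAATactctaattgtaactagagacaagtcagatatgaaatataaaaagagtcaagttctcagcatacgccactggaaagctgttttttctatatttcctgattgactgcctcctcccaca

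All 6 genes were found in the promoter table, with 9 starts in all. Motifs were searched on both strands. The core of the Dmrt1 site, ACANTGT, was in none of the 9 windows and in 7.54% of 32851 mouse promoters of the same length. The steroid receptor half-site TGTTCT, in 19.0% of promoters, was found once, in Rhox5 at position -225 from the start. It overlaps a match in reverse complement to the Sox site AACAAT at position -227, and the 8 capitals in the Rhox5 sequence cover both. AACAAT, in 10.7% of promoters, was also matched in Wfdc18 at position -73 and, in reverse complement, at the second of 2 Hopx starts at position -179. The Sf1 site AAGGTCA, in 4.72% of promoters, was found once, in reverse complement at position -129 of Tbx22. The Gata site AGATAA, in 11.2% of promoters, was found in the same Tbx22 window, in reverse complement at position -22. The Lpar3 window held none of these motifs, and 70.3% of its bases are G or C against a median of 52.7% over all promoters. A match here is a match of letters and shows no binding.

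Levels are given as log2 of the deposited intensity. A log2 value of 4 (an intensity of 16) was taken as the floor, and a gene was tested when at least 2 arrays reached it, which 13802 genes did, all 6 members among them. The members passed through their high groups, so passing says nothing about them. Where a group mean lay under the floor, the fold is against the floor and is written as "at least". In whole testis, fewer cells of a type and less RNA per cell cannot be told apart.

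Dmrt1 itself stood at log2 8.50 and 8.76 in controls and at 7.10 to 7.89 in Sf1-Cre arrays, a fall of 2.13-fold (limma adjusted p = 0.0038, Benjamini-Hochberg). The log2 difference was -1.09 as deposited, -2.79 with arrays centred on housekeeping genes and -3.70 with arrays centred on Sertoli genes. In the arrays labelled Dhh-Cre it stood at 10.43 and 9.94, above the controls (log2 difference 1.55), which goes against their label as deletions. With arrays centred on housekeeping genes this difference was -0.14 and did not pass (limma adjusted p = 0.7). No label places the probe set inside or outside the deleted part, so the check of the label is limited. Spermatid genes, 15 of 15 on the array, summed to an intensity of 84410 to 90222 in controls, 1365 to 12877 in Dhh-Cre arrays and 1400 to 6441 in Sf1-Cre arrays, so both mutant groups had little RNA of late germ cells. The ratio of 3′ to 5′ Actb signal was 4.44 and 4.89 in controls and 9.45 to 13.6 in the mutant arrays. The same ratio for Gapdh was 3.58 and 2.96 in controls and 1.67 to 3.30 in the mutant arrays, so the Gapdh ratio did not rise with that of Actb. Spink8, an epididymal gene, was at log2 10 or above in 1 Dhh-Cre array (11.55) and 2 Sf1-Cre arrays (12.05 and 10.49). Of the 14 epididymal genes on the array, Defb42 and Adam7 were also highest in those 3 arrays, at 9.19, 8.34 and 6.16 and at 7.59, 6.72 and 3.72, and 8 were under the floor in all arrays, Lcn5, Lcn8, Lcn9 and Gpx5 among them. The remaining tested genes of this list did not follow those arrays. Defb21 was at 8.12 and 8.44 in controls and at 2.03 to 2.61 in the mutant arrays. Ros1 was at 4.41 and 4.04 in controls and under the floor in the mutants, and Defb15 was highest in Sf1-Cre replicate 4 (5.24). The list summed to 445 to 492 in controls, 118 to 3872 in Dhh-Cre arrays and 141 to 4776 in Sf1-Cre arrays. Without those 3 arrays the log2 difference of Sf1-Cre from Dhh-Cre was -7.66 for Tsx, -6.86 for Tbx22, -8.28 for Lpar3, -3.34 for Hopx and -6.64 for Wfdc18. That setting keeps replicate 2 as the only Dhh-Cre array, which was the higher of the pair for 5 of 6 members. A change in these differences can therefore come from the Dhh-Cre array that remains.

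Tsx, Rhox5 and Tbx22 are the 3 X-linked members. The log2 intensity of Tsx was 11.17 and 11.15 in controls, 11.68 and 12.39 in Dhh-Cre arrays, and 5.23, 4.95, 5.07 and 4.52 in Sf1-Cre arrays. With Sf1-Cre all 4 samples were far below the other groups, and the Dhh-Cre pair lay above the controls. The group means were 11.16 ± 0.02 (SD, n = 2), 12.03 ± 0.51 (n = 2) and 4.94 ± 0.30 (n = 4). The Sf1-Cre mean was 74.3-fold below control (log2 difference -6.22 ± 0.26 SE) and 136-fold below Dhh-Cre (-7.09 ± 0.26).

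Rhox5 was 7.97 and 8.08 in controls, 7.93 and 9.03 in Dhh-Cre arrays, and 3.68, 3.09, 3.22 and 3.79 in Sf1-Cre arrays. All 4 Sf1-Cre arrays were under the floor, while the Dhh-Cre arrays lay on either side of the controls. The means were 8.02 ± 0.07, 8.48 ± 0.78 and 3.44 ± 0.34. Rhox5 was thus at least 16.3-fold lower in Sf1-Cre than in control (-4.58 ± 0.33 SE) and at least 22.3-fold lower than in Dhh-Cre (-5.03 ± 0.33). The Sf1-Cre arrays with Spink8 at 12.05 and 10.49 had Rhox5 at 3.68 and 3.22, and without the 3 arrays with high Spink8 the difference of Sf1-Cre from Dhh-Cre was -5.59.

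Tbx22 was 7.13 and 6.06 in controls, 8.37 and 9.26 in Dhh-Cre arrays, and 3.34, 2.35, 2.79 and 2.45 in Sf1-Cre arrays. The 3 groups did not overlap, and every Sf1-Cre array was under the floor. Its means were 6.59 ± 0.76, 8.81 ± 0.63 and 2.73 ± 0.45. The Sf1-Cre mean was at least 6.03-fold below control (-3.86 ± 0.41 SE) and at least 28.1-fold below Dhh-Cre (-6.08 ± 0.41). Dhh-Cre was 4.66-fold above control (2.22 ± 0.47).

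Lpar3, the receptor, was under the floor in every Sf1-Cre array. Its values were 7.93 and 8.07 in controls, 10.41 and 10.54 in Dhh-Cre arrays, and 2.03, 2.27, 2.10 and 2.25 in Sf1-Cre arrays. No group overlapped another. The Dhh-Cre mean was 10.47 ± 0.09 (SD, n = 2) and the Sf1-Cre mean 2.16 ± 0.12 (n = 4). Lpar3 was at least 16.0-fold lower in Sf1-Cre than in control (-5.83 ± 0.14 SE), 5.57-fold higher in Dhh-Cre than in control (2.48 ± 0.16), and at least 88.9-fold lower in Sf1-Cre than in Dhh-Cre (-8.31 ± 0.14).

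Hopx, the partner-dependent homeodomain protein, was near the floor in controls. Its main probe set, the one with the higher mean, gave 4.36 and 4.56 in controls, 5.75 and 7.04 in Dhh-Cre arrays, and 3.49, 3.59, 3.64 and 3.81 in Sf1-Cre arrays. The groups did not overlap, but the Sf1-Cre arrays were under the floor and the controls only just above it, so the fall from control was at least 1.37-fold (-0.83 ± 0.32 SE). The larger step was upward, 3.82-fold from control to Dhh-Cre (1.93 ± 0.37). The second Hopx probe set gave 3.94 and 4.24 in controls, 3.78 and 5.34 in Dhh-Cre arrays, and 3.19, 3.29, 3.04 and 3.48 in Sf1-Cre arrays. There the Dhh-Cre arrays overlapped the controls, so a rise of Hopx in Dhh-Cre rests on 1 of its 2 probe sets, while the Sf1-Cre arrays were lowest in both.

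Wfdc18 differed from the other 5. It was 4.23 and 4.24 in controls, 12.15 and 11.78 in Dhh-Cre arrays, and 5.47, 4.93, 4.69 and 5.34 in Sf1-Cre arrays. The controls were the lowest, the Sf1-Cre arrays all somewhat above them, and the Dhh-Cre arrays far above both. The means were 4.24 ± 0.01, 11.97 ± 0.27 and 5.11 ± 0.36. Dhh-Cre was 212-fold above control (7.73 ± 0.28 SE), the largest rise of all 13802 genes in that comparison, and Sf1-Cre was 116-fold below Dhh-Cre (-6.86 ± 0.24). From control to Sf1-Cre the level was 1.83-fold higher (0.87 ± 0.24), but with arrays centred on housekeeping genes this difference was -0.83. The probe set is of a type that can match more than 1 transcript. Wfdc17, a related gene with its own probe set, had another pattern, with 4.23 and 4.17 in controls, 9.03 and 9.31 in Dhh-Cre arrays and 9.73 to 10.76 in Sf1-Cre arrays.

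**Figure D1:**
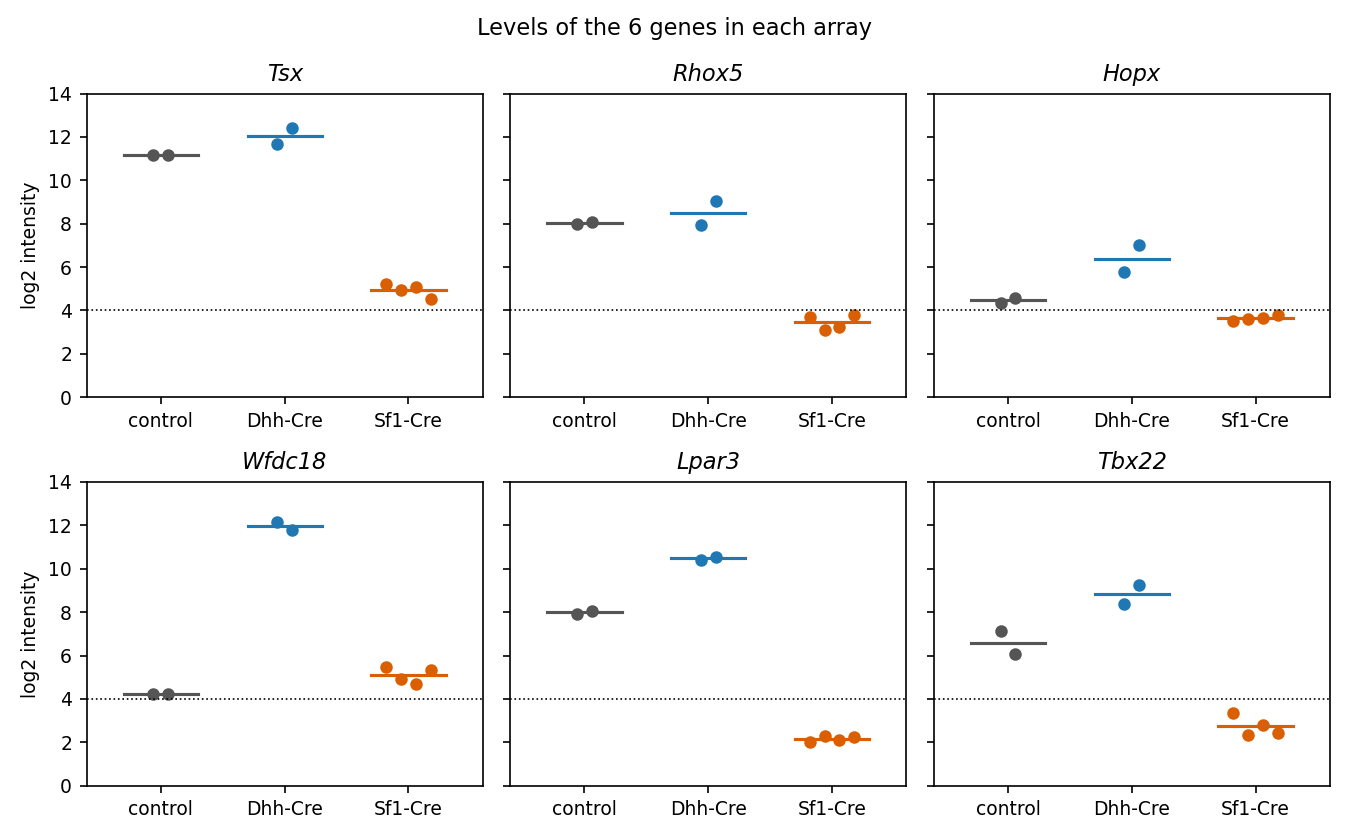
Log2 intensity (vertical axis) of each gene in the 2 control, 2 Dhh-Cre and 4 Sf1-Cre arrays (horizontal axis). Points are arrays, bars are group means and the dotted line is the floor at log2 4. The Sf1-Cre arrays are lowest in every panel except Wfdc18, where the controls are, and 4 of the 6 genes have all Sf1-Cre arrays under the floor.

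Set against the whole array, every Sf1-Cre array was below every Dhh-Cre array for 6 of 6 members and for 23.2% of all tested genes. Every Sf1-Cre array was below every control for 5 of 6 members (all but Wfdc18) and 36.0% of all genes, and every Dhh-Cre array was above every control for 5 of 6 (all but Rhox5) and 56.0%. The full order of Sf1-Cre below control below Dhh-Cre, without overlap, held for Tsx, Hopx, Lpar3 and Tbx22 and for 1.88% of all genes. Members were picked for these properties, so the shares describe the choice. Over all tested genes the differences from control were broad. At a limma adjusted p under 0.05, 33.2% of genes were lower and 46.6% higher in Sf1-Cre than in control, and 30.5% were lower and 49.1% higher in Dhh-Cre than in control. Between the Cre lines 11.8% were lower and 12.9% higher in Sf1-Cre.

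**Figure D2:**
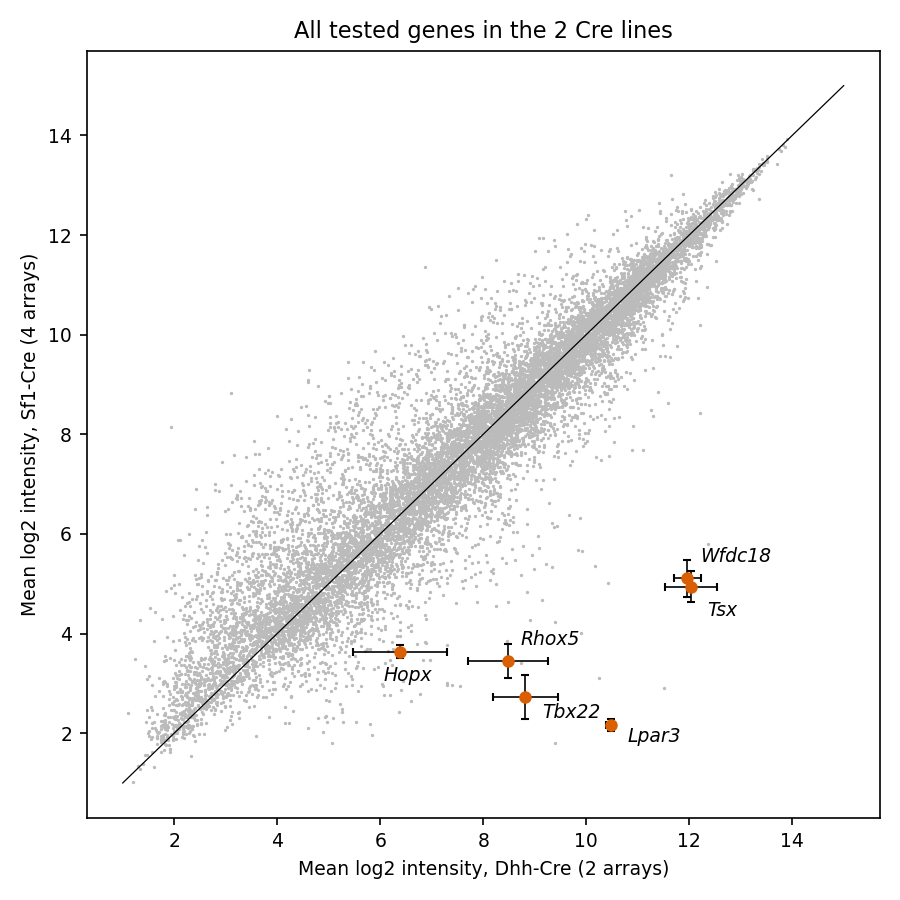
Mean log2 intensity in Sf1-Cre (4 arrays, vertical axis) against Dhh-Cre (2 arrays, horizontal axis) for the 13802 tested genes in grey and the 6 members in orange. Bars are SDs and the line marks equal levels. The members lie below the line, Lpar3 with a plotted difference of -8.31 and Hopx with -2.76, both with Sf1-Cre means under the floor of log2 4.

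The members' differences from control depended on how arrays were scaled. Over all tested genes the median log2 difference from control was 0.34 for Sf1-Cre and 0.54 for Dhh-Cre with the deposited scaling. It was -1.36 and -1.16 when each array was centred on 13 housekeeping genes. The share of called genes that were higher than control went from 58.4% to 17.8% for Sf1-Cre and from 61.7% to 19.1% for Dhh-Cre. The members moved down by the same step in both comparisons. From control to Sf1-Cre, Tsx went from -6.22 to -7.91, and Wfdc18, higher than control as deposited, turned to -0.83. From control to Dhh-Cre, Tsx went from 0.88 to -0.82 and Rhox5 from 0.45 to -1.24, while Tbx22, Hopx, Lpar3 and Wfdc18 stayed above control with this centring. With arrays centred on 26 Sertoli genes, Lpar3 (0.20) and Wfdc18 (5.45) alone among the 6 stayed above control in Dhh-Cre, and Tbx22 was at -0.059. The falls from control to Sf1-Cre of Tsx, Rhox5, Hopx, Lpar3 and Tbx22 kept their sign in all 15 alternatives. The falls from Dhh-Cre to Sf1-Cre of all 6, on which they were chosen, did so too. No array of one line crossed the other in any alternative, but those that leave out arrays or add a block could not have made them cross.

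**Figure D3:**
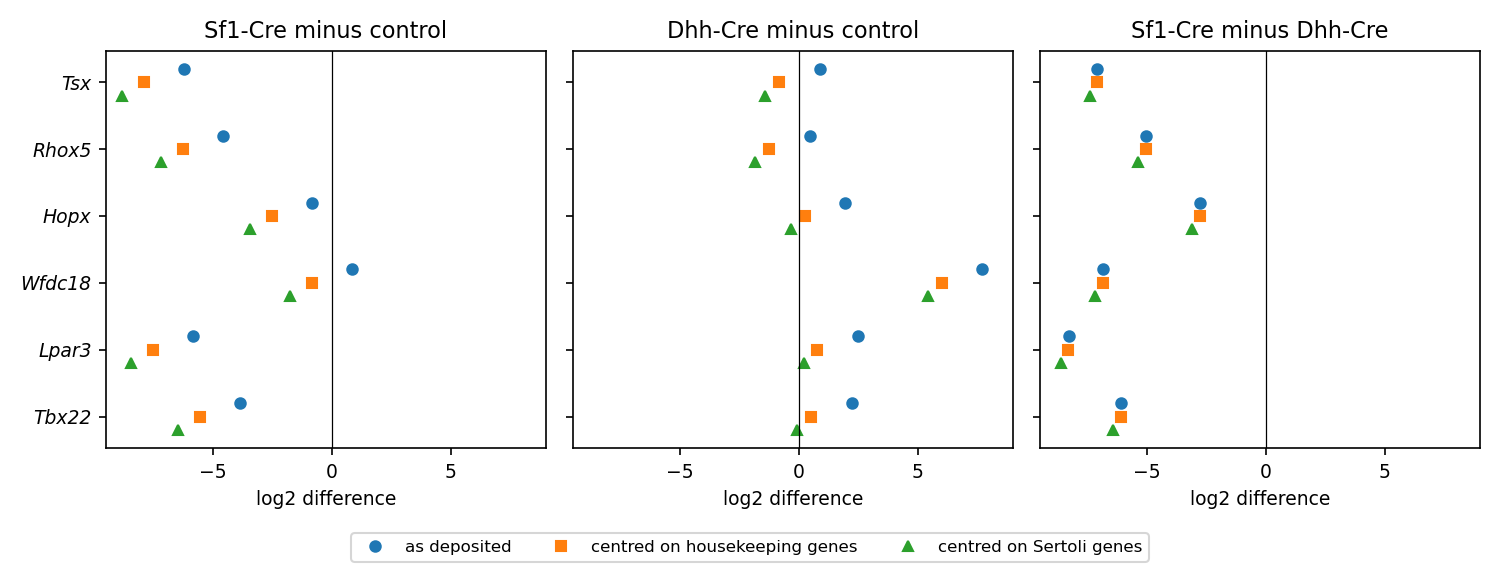
Log2 differences (horizontal axis) of the 6 genes (vertical axis) in the 3 comparisons with the deposited scaling (circles), arrays centred on housekeeping genes (squares) and arrays centred on Sertoli genes (triangles). The points in the panel of Sf1-Cre minus Dhh-Cre stay together, whereas in the panel of Dhh-Cre minus control Tsx crosses 0, from 0.88 to -0.82 and -1.40.

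Wfdc18 had lower correlations with most of the other 5 members than those had with one another, but Hopx lay between. Pearson r ran from 0.821 to 0.991 among the other 5 and from 0.533 to 0.865 between them and Wfdc18. Hopx had 0.865 with Wfdc18, above its 0.821 with Tsx and 0.824 with Rhox5. Over the 8 arrays, which share 3 groups and hence the group differences, Tsx and Rhox5 had a Pearson r of 0.991, and Lpar3 had 0.985 with Tsx and 0.981 with Tbx22. The lowest r was 0.533, between Wfdc18 and Rhox5. The second Dhh-Cre array was the higher of the pair for 5 of 6 members, all but Wfdc18. The tested gene nearest to Tsx was Rhox5, and next came Pdzd2 (r = 0.988) and Shc4 (0.986). After Tsx, Rhox5 was nearest to Paqr8, a membrane progestin receptor (0.985), and to Nf2, which encodes the tumour suppressor merlin (0.985). Nearest to Lpar3 were Dmrtc1a, an X-linked relative of Dmrt1 (0.994), the X-linked Mageb16 (0.994), and Sh3gl2, the endocytic protein endophilin A1 (0.993). Tbx22 was nearest to Olig1 (0.999), a neural transcription factor, to the ion channel gene Trpm3 (0.994) and to Flvcr2 (0.991). Hopx was nearest to Zcchc18 (0.981), Dusp16 (0.980) and Qpct (0.980). Wfdc18 was nearest to Wipf3 (0.996), Arhgap22 (0.996) and Nptx2 (0.994), 3 genes whose means were highest in Dhh-Cre. Members aside, some of these genes were partly under the floor. The means of Olig1, Zcchc18 and Arhgap22 were under log2 4 in control and Sf1-Cre, and those of Trpm3 and Mageb16 in Sf1-Cre. Their r values thus rest in part on values close to background. All correlations given here are descriptions, and they rank the best of 13802 genes.

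In the whole table, 337 genes (2.44% of those tested) were called lower in Sf1-Cre than in both other groups while not called lower in Dhh-Cre than in control. The members were picked for such a pattern, so their own calls are not counted as a result. Genes called higher in Dhh-Cre than in both other groups made up 9.05%. The X chromosome carries 464 of the tested genes (3.36%) and 21 of the 337 (6.23%), members included. Tsx, Rhox5 and Tbx22, picked for this pattern, are among the 21 and raise that share. Members aside, the 10 largest measured falls from Dhh-Cre to Sf1-Cre among the 337 were those of Cep85, Dmrtc1a, Emb, Pcsk1n, Mageb16, Sh3gl2, Frzb, Atp13a4, Dmkn and Actn3, from -5.88 to -4.01 on the log2 scale. Dmrtc1a, Pcsk1n and Mageb16 are X-linked.

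Dmrtc1a was 8.18 and 8.81 in controls, 10.31 and 10.54 in Dhh-Cre arrays and 4.73 to 5.35 in Sf1-Cre arrays, a 42.7-fold fall between the lines (-5.42 ± 0.23 SE, limma adjusted p = 1.78e-05). Its groups stood in the same order as those of Lpar3. Frzb, which encodes a secreted Wnt antagonist, was 6.17 and 6.42 in controls, 8.86 and 8.98 in Dhh-Cre arrays and 4.11 to 4.39 in Sf1-Cre arrays (-4.65 ± 0.15, limma adjusted p = 6.08e-06). Pcsk1n, the inhibitor of a prohormone convertase, was 5.08 and 5.34, then 8.73 and 8.25, then 3.09 to 3.59, at least 22.4-fold lower in Sf1-Cre than in Dhh-Cre (limma adjusted p = 1.18e-05). Sh3gl2 fell by 4.81 ± 0.15 on the log2 scale (limma adjusted p = 6.08e-06). Cep85, a centrosomal protein gene, stood apart. Its fall of 5.88 ± 1.03 had a limma adjusted p of 0.00695, but 1 Sf1-Cre array read 6.81 where the other 3 read 2.85 to 3.26, and the call was lost without Dhh-Cre replicate 1 and without the 3 arrays with high Spink8.

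Sertoli genes other than the members were called more often lower than higher in Sf1-Cre than in Dhh-Cre. Of 26 tested Sertoli genes, 10 fell and 3 rose from Dhh-Cre to Sf1-Cre, with a median log2 difference of -0.21 against 0.02 over all genes. Of all tested genes, 11.8% were called lower and 12.9% higher, so the rises were no more frequent than over all genes. The 3 that rose were Ptgds (1.84 ± 0.48 SE, limma adjusted p = 0.0283), Mro (1.16 ± 0.34, limma adjusted p = 0.0406) and Kitl (0.78 ± 0.21, limma adjusted p = 0.0308). Mro and Kitl did not pass with arrays centred on Sertoli genes. The largest falls were those of Sox9 (-1.96 ± 0.29 SE, limma adjusted p = 0.00372), the sex-determining factor of Sertoli cells, and Espn, an actin bundler of Sertoli junctions (-1.81 ± 0.23, adjusted p = 0.00181). Sox8, a relative of Sox9, was 2.82-fold lower (adjusted p = 0.00108) and Cst9, a cystatin of Sertoli cells, 2.72-fold lower (adjusted p = 0.00331). In control, Dhh-Cre and Sf1-Cre, the means were 5.69, 8.47 and 6.51 for Sox9 and 5.25, 7.23 and 5.41 for Espn. They were 3.45, 5.53 and 4.03 for Sox8, close to the floor in Sf1-Cre, and 11.90, 12.18 and 10.73 for Cst9. Cst9 alone among these lay below control in Sf1-Cre with the deposited scaling. Against control, 18 of the 26 were higher and 2 lower in Sf1-Cre, but with arrays centred on housekeeping genes 8 were higher and 12 lower. The summed intensity of the list was 40399 to 41321 in controls, 78078 to 81932 in Dhh-Cre arrays and 66861 to 73356 in Sf1-Cre arrays. Amh was under the floor in all 8 arrays. The count of 13 called genes was 6 without either Dhh-Cre array and 8 without Sf1-Cre replicate 2.

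Because Rhox5 is a classic androgen-responsive transcript, 8 other genes known to respond to androgen in Sertoli cells were counted. Beside them, 11.8% of all tested genes were called lower and 12.9% higher in Sf1-Cre than in Dhh-Cre. From Dhh-Cre to Sf1-Cre, 5 of the 8 fell and none rose, with a median log2 difference of -1.16, and 4 or 5 were lower and 0 higher in every alternative tried. The list was chosen with earlier results of these data known, so the counts are a description. Against control, 5 were higher and 2 lower in Dhh-Cre, and 2 higher and 4 lower in Sf1-Cre. With arrays centred on housekeeping genes, 1 was higher and 3 lower in Dhh-Cre, and 0 higher and 7 lower in Sf1-Cre. Tubb3, a tubulin, averaged 9.88 in Dhh-Cre and 6.32 in Sf1-Cre, with controls at 6.63 (-3.56 ± 0.32 SE, limma adjusted p = 0.000463). Drd4, a dopamine receptor, fell by 2.55 ± 0.26 (limma adjusted p = 0.000839) and the defensin Defb45, under the floor in Sf1-Cre, at least 1.51-fold (limma adjusted p = 0.000134). Corin, a membrane protease, fell by 1.64 ± 0.20 (limma adjusted p = 0.00161), and Tpd52l1 by 0.69 ± 0.17 (limma adjusted p = 0.0251), the last not with arrays centred on Sertoli genes (adjusted p = 0.105). Eppin (-0.55, adjusted p = 0.097), Cldn3 (-0.57, adjusted p = 0.247) and Cldn13 (-0.05, adjusted p = 0.853) did not pass. Of 5 genes of androgen synthesis, Star, which brings cholesterol into mitochondria, fell by 1.28 ± 0.23 (limma adjusted p = 0.0077). Cyp11a1 (0.43), Cyp17a1 (0.79), Hsd3b1 (0.26) and Hsd17b3 (0.58) did not pass.

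**Figure D4:**
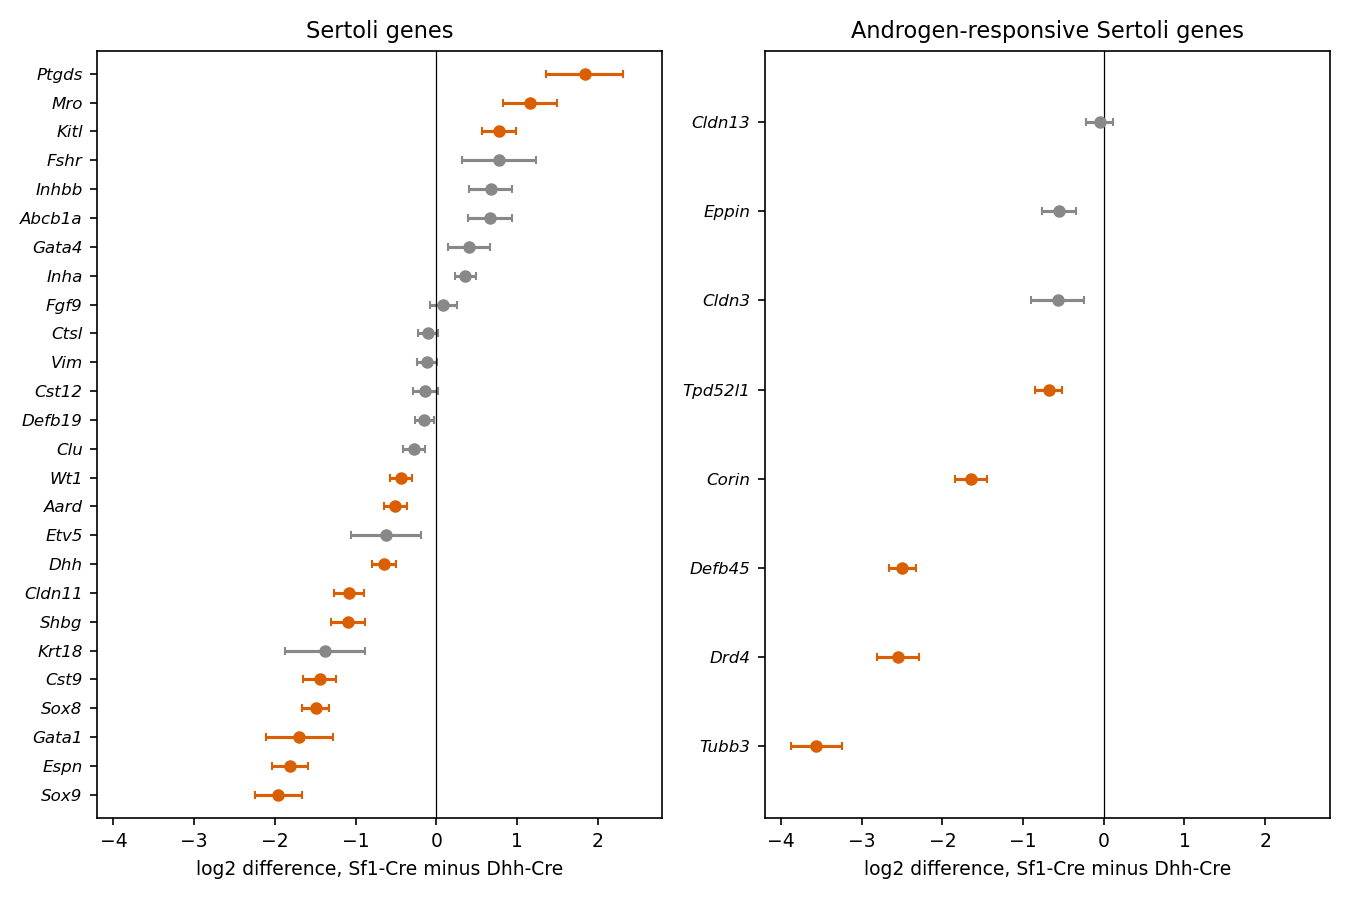
Log2 difference of Sf1-Cre minus Dhh-Cre (horizontal axis) with its SE for 26 Sertoli genes (left) and 8 androgen-responsive Sertoli genes (right). Orange marks a limma adjusted p under 0.05. The Sertoli genes spread on both sides of 0 with 10 lower and 3 higher, while all 5 called androgen-responsive genes are lower.

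Among relatives and neighbours of the members, some genes were called between the Cre lines in each direction. The share called over all tested genes was 11.8% lower and 12.9% higher in Sf1-Cre, so these calls are a description and no trait of the relatives. In the reproductive homeobox cluster, Rhox13, a germ cell member, fell by 0.86 ± 0.17 SE from Dhh-Cre to Sf1-Cre (limma adjusted p = 0.00968, and 0.0538 with arrays centred on Sertoli genes), and Rhox6 and Rhox9 were under the floor in all arrays. Of 5 tested genes around the X-inactivation centre, where Tsx lies, Zcchc13, under the floor in Dhh-Cre, rose at least 1.18-fold (limma adjusted p = 0.0426), a call lost with arrays centred on housekeeping genes (adjusted p = 0.0648). Ftx, Rlim, Jpx and Chic1 did not pass. Of 10 genes of lysophosphatidic acid signalling, the receptor Lpar2 fell by 1.72 ± 0.21 (limma adjusted p = 0.00168) and Lpar6 rose by 1.23 ± 0.19 (limma adjusted p = 0.0047), although the rise did not pass with arrays centred on Sertoli genes. Lpar1 was at -0.67 (adjusted p = 0.091). Of 11 genes with a whey acidic protein domain, Wfdc1 fell by 2.24 ± 0.26 (limma adjusted p = 0.00142), Wfdc6a by 1.57 ± 0.34 (limma adjusted p = 0.0153) and Wfdc17 rose by 1.02 ± 0.27 (limma adjusted p = 0.0289), the last not with arrays centred on Sertoli genes. Of 5 T-box genes Tbx1 fell, by 1.30 ± 0.34 (limma adjusted p = 0.0298). Of 9 partners of Hopx, Mrtfb fell by 0.48 ± 0.13 (limma adjusted p = 0.0371), a call lost with arrays centred on either list.

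Markers of other cells moved between the Cre lines as well, and their part in the members' differences was not tested. The counts below stand beside 11.8% of all tested genes called lower and 12.9% called higher in Sf1-Cre. Of 14 granulosa genes 7 were higher and 1 lower in Sf1-Cre than in Dhh-Cre, and the list summed to 3537 to 3723 in controls, 12779 to 13530 in Dhh-Cre arrays and 16355 to 21574 in Sf1-Cre arrays. Of 12 spermatogonial genes 6 were lower and 1 higher, with sums of 7360 to 7481, 8799 to 9439 and 4367 to 6653. Of 9 peritubular genes 4 were lower and 0 higher, with sums of 7761 to 8003, 14730 to 17110 and 11389 to 12941. Of 15 spermatid genes 1 was lower and 1 higher, and of 10 macrophage genes 3 were higher and 0 lower. With arrays centred on Sertoli genes, 5 granulosa and 0 macrophage genes were higher, 2 peritubular genes were lower, and spermatid genes split into 3 higher and 3 lower.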

How the data were processed

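Total RNA of whole testis was labelled with biotin and hybridised to 1-colour Affymetrix arrays, per the labels. The authors deposited 1 linear intensity per probe set and array, and GCRMA is the tool named in the submitters' processing notes. Background correction and normalization are thus the authors'. The number of arrays, 2, 2 and 4 per group, limits the precision.

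Values were turned into log2. Of 45101 probe sets, 34958 have 1 gene symbol, 932 several and 9211 none, and only the first were named; 34754 of them matched a current gene. A gene is read from its probe set with the highest mean over arrays, and 4392 genes that did not reach log2 4 in at least 2 arrays were left out. One limma model (version 3.58.1, R 4.3.3) with 3 group means was fitted to all 8 arrays, with 5 residual degrees of freedom and empirical Bayes moderation. Calls use a Benjamini-Hochberg adjusted p under 0.05 over 13802 genes. P-values set each difference between groups against the spread between samples within the 3 groups. The fit was tested on simulated data.

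The members and gene lists were chosen with earlier results of these data known, and the members are left out of every list. Genes beyond them were named by rule. The rule took the 3 highest correlations of each member, the 10 largest falls in Sf1-Cre alone and the tested relatives of the members. It also took the called genes of each list with the lowest p (up to 4). Further genes of the Sertoli and androgen lists and epididymal markers were named after their values were seen. Alternatives changed the scaling, filter, threshold, probe set rule, block and arrays. Leaving out the arrays with high Spink8 was chosen after seeing the data. The main fit did not pair the groups by replicate number. Deviations of same-numbered arrays correlated from -0.19 to 0.38, which cannot settle whether such arrays share a batch. Spink8 was higher in replicate 1 than in replicate 2 in controls (6.87 and 3.11), Dhh-Cre (11.55 and 4.48) and Sf1-Cre (12.05 and 5.79).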

Additional observations from a re-analysis of the deposited data

Results flagged for a closer look

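For 4 of the 6 genes every Sf1-Cre array lay below both controls and every Dhh-Cre array above both. They are Tsx, with a log2 difference between the Cre lines of -7.09, Hopx with -2.76, Lpar3 with -8.31 and Tbx22 with -6.08. The difference was not tested as a result, since the genes were chosen on it. The rise in Dhh-Cre depends on the scaling for Tsx, Hopx and Tbx22, and for Hopx on the probe set as well.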

How the results depend on the processing

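The sign of Sf1-Cre minus Dhh-Cre for all 6 genes, and the lack of overlap between the lines, were the same in all 15 alternatives. Leaving out arrays or adding the block cannot make separate arrays overlap, so those alternatives do not bear on the overlap. The genes were also chosen on this difference. Differences that changed sign were those from control. With arrays centred on housekeeping genes, Tsx in Dhh-Cre went to -0.82, Rhox5 in Dhh-Cre to -1.24 and Wfdc18 in Sf1-Cre to -0.83. With arrays centred on Sertoli genes, Dhh-Cre minus control was -1.40 for Tsx, -1.83 for Rhox5, -0.35 for Hopx and -0.059 for Tbx22, and Sf1-Cre minus control was -1.74 for Wfdc18. Rhox5 in Dhh-Cre, whose arrays overlap the controls, was also at -0.098 without Dhh-Cre replicate 2. Counts moved more. Genes called between the Cre lines numbered 3402, and 1946 with Sertoli centring (42.2% of them higher in Sf1-Cre, against 52.3%), 1352 at an adjusted p under 0.01 and 816 without the 3 arrays with high Spink8. Leaving out 1 array gave 1234 (without Dhh-Cre replicate 1) to 3717. Genes lower in Sf1-Cre alone numbered 337, with 610 under housekeeping centring, 586 under Sertoli centring, 175 at the stricter threshold and 159 without the high Spink8 arrays, and 203 (without Dhh-Cre replicate 1) to 328 with 1 array left out. The 13 called Sertoli genes became 6 at the stricter threshold and 6 without the high Spink8 arrays, and 6 to 14 with 1 array left out. With the replicate number as a block, which rests only on replicate numbers that groups share, 240 genes were lower in Sf1-Cre alone and 8 Sertoli genes were called. Among named genes, the call of Dusp16 was lost with Sertoli centring, the block, without Dhh-Cre replicate 2 and without the high Spink8 arrays, and that of Nf2 without the latter. The cause of these moves was not tested. Values under log2 4 are close to background, so falls of Rhox5, Hopx, Lpar3 and Tbx22 have no upper limit here.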
